A study of Mus musculus with 138 samples.

Results

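The genes described are 9 members of the heat shock response: Hspa1a, Hspa1b, Hspa8, Hspa5, Hsp90aa1, Hsp90ab1, Hspd1, Dnajb1 and Hsf1. They were chosen by name, from the 25900 genes of the count tables, because Hspa1a and Hspa1b are among the first genes transcribed from the embryonic genome and Hsf1 is a factor that the oocyte supplies. All 9 had counts in both tables of the series. Each library held the polyadenylated RNA of 1 plate well with a mouse embryo at the 2-cell stage.

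In the maternal deletion experiment, 28 libraries came from Smarca5 +/- embryos, whose mothers lacked Smarca5 in the oocyte (mat KO) and were mated with wild-type males. The 22 libraries labelled wild type came from Smarca5 +/+ embryos. The titles of wild-type and deletion libraries alike give matKO females as the source, which leaves the mothers of wild-type embryos unclear, and loss of the maternal protein cannot be told apart from the embryo's own genotype. What drives the deletion is not given in the sources used here. In the TrimAway experiment, wild-type zygotes received an antibody to SMARCA5 (a-Smarca5, 31 libraries) or IgG (20 libraries), and 15 libraries came from uninjected embryos. TrimAway sends the antibody's target protein to degradation through TRIM21. Each replicate number stood for a pool of embryos from several matings or injections.

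Heat shock proteins are chaperones that hold unfolded proteins, refold them or pass them on for degradation. HSF1 is the transcription factor that switches on their genes under stress by binding heat shock elements, which are inverted repeats of GAA blocks. In the mouse 2-cell embryo, Hspa1a and Hspa1b are transcribed without any stress as the embryonic genome starts up, and HSF1 from the oocyte is known to be needed for early development. HSPA8 and the HSP90 proteins are abundant cytosolic chaperones, HSPA5 works in the endoplasmic reticulum and HSPD1 in mitochondria.

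The upstream sequences of Hspa1a and Hspa1b are shown because these genes are close copies, and the pair is also tested below as a sum. These sequences do not show how reads were divided between the copies. Both lie on the minus strand of chromosome 17. The 250 bases before each start site, from RefSeq's promoter table for GRCm38.p6, are written 5′ to 3′, with the heat shock element match in capitals.
Hspa1a, chr17:34972157-34972406 (minus strand): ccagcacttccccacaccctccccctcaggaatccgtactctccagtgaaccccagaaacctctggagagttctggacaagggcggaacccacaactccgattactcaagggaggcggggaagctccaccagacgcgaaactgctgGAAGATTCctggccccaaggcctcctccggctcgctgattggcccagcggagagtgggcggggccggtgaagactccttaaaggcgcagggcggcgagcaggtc
Hspa1b, chr17:34959239-34959488 (minus strand): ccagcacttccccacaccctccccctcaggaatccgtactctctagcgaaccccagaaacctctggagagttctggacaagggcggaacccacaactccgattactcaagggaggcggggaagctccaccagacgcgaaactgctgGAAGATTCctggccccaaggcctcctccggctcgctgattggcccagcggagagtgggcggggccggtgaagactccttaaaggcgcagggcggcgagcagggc
The windows differed at 3 of 250 bases (C44T, T47C and T249G, with Hspa1a's base first and positions counted from 1 at the 5′ end), so they were 98.8% identical. Each held GAAGATTC, a match to GAANNTTC, from 104 to 97 bases before the start, and a CCAAT box on the opposite strand from 67 to 63 bases before it.

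Heat shock elements were searched as GAANNTTC and as TTCNNGAA on both strands, and 12.84% of all 32851 RefSeq windows of this length held at least 1 of these forms. A CCAAT box was in 33.85% of them. Of the 9 genes, 5 had windows in the table (Hspa1a, Hspa1b, Hspa5, Hspd1 and Dnajb1). A short site from the windows of Hspa5 and Hspd1 is shown for contrast, with the match in capitals and 3 bases on each side.
Hspa5, chr2:34772022-34772046 (plus strand): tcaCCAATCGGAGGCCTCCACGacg
Hspd1, chr1:55088056-55088079 (minus strand): gccTTCCGGAAGGTTCTAGAAcgg
The Hspa5 site is an endoplasmic reticulum stress element (CCAAT and CCACG with 9 bases between them, in 0.1126% of windows), from 65 to 47 bases before RefSeq's start. The Hspd1 site, in the second of that gene's windows, holds 2 overlapping triple elements (GAANNTTC followed by NNGAA, on either strand, in 0.4657% of windows), from 144 to 127 bases before that start. Both sites lie in exons that GENCODE annotates as untranslated. Hspa5 held no GAANNTTC or TTCNNGAA match and neither window of Dnajb1 did.

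Gene positions were on GRCm38, as the tables give them. Hspa1a lies at 34969199-34972154 and Hspa1b at 34956436-34959238 on chromosome 17, which also carries Hsp90ab1 at 45567775-45573271. Hspa8 is on chromosome 9 (40800984-40805200), Hspa5 on chromosome 2 (34771970-34776531), Hsp90aa1 on chromosome 12 (110690605-110702728), Hspd1 on chromosome 1 (55077835-55088243), Dnajb1 on chromosome 8 (83608175-83611902) and Hsf1 on chromosome 15 (76477445-76500972). Counting could divide reads between copies for several of them. Of all 50-base windows of the longest coding transcript, 60.3% of Hspa1a and 62.3% of Hspa1b occurred in another gene, nearly all in each other. The shares were 73.2% for Hspa8 (mostly Gm15459), 58.5% for Hsp90aa1 (mostly Gm12346), 44.8% for Hspd1 (mostly Hspd1-ps3) and 4.49% for Hsp90ab1. Dnajb1 had 0.407%, and Hspa5 and Hsf1 had 0. Hspa1a also overlaps Gm20481 and Hspd1 overlaps Hspe1 on the opposite strand, and the treatment of strand in counting is not given in the sources used here.

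Totals of the 116 libraries kept ranged from 109007 to 12004992 counts, with a median of 1469197. Smarca5 RNA, the targeted gene, was 413 ± 197 CPM (SD, n = 22) in wild type and 98.6 ± 81.6 CPM (SD, n = 28) in the deletion group (log2 fold change -2.06, adjusted p = 2.63e-07). CPM here are counts scaled to a common library size with TMM throughout. One deletion library of replicate 2 (well A04) and 2 wild-type libraries of replicate 2 (wells G05 and H05) went against their labels, with Smarca5 at 319, 153 and 172 CPM. A deletion library of replicate 1 (well H09) was as high as the first of these, at 322 CPM, and 4 of 28 deletion libraries in all lay within the wild-type range. The member tests of the deletion comparison were therefore also run without the 3 libraries and without these and well H09, 4 in all. Summed levels of gene lists, shares of the Hspa1 copies and values by replicate hold all libraries. Wells without an embryo held 3 counts of Hspa8, 2 of Hspa5, 2 of Hsf1, 1 of Hsp90ab1 and 1 of Hspd1 over all 3 wells, and none of the other members. Trim21 RNA was at 0 in all 10 kept IgG libraries of replicate 1 and in 2 of 10 of replicate 3, but in only 1 of 31 anti-SMARCA5 libraries (replicate 2) and its median in IgG replicate 3 was 282 CPM. Trim21 was at or near 0 in all other groups. Its part in the comparisons with IgG was not tested. TrimAway acts on protein, so Smarca5 RNA is no check of it.

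Against wild type, the deletion group had less Hspa8, Hsp90aa1 and Hsp90ab1 RNA and more Hsf1 RNA. The sum of Hspa1a and Hspa1b also fell. Its mean went from 47.8 to 2.80 CPM in replicate 1 and from 14.2 to 9.95 CPM in replicate 2. Hspa5, Hspd1 and Dnajb1 did not pass the test. The low-count filter kept 7 of the 9 members, and 4 of those 7 passed (1 higher and 3 lower) at an adjusted p under 0.05. Among all 8518 genes tested in this comparison, 56.6% passed, 30.3% higher and 26.4% lower, so the members' share was near that of all genes. In libraries made from whole embryos, fewer cells with a transcript and less of it per cell cannot be told apart.

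**Figure D1:**
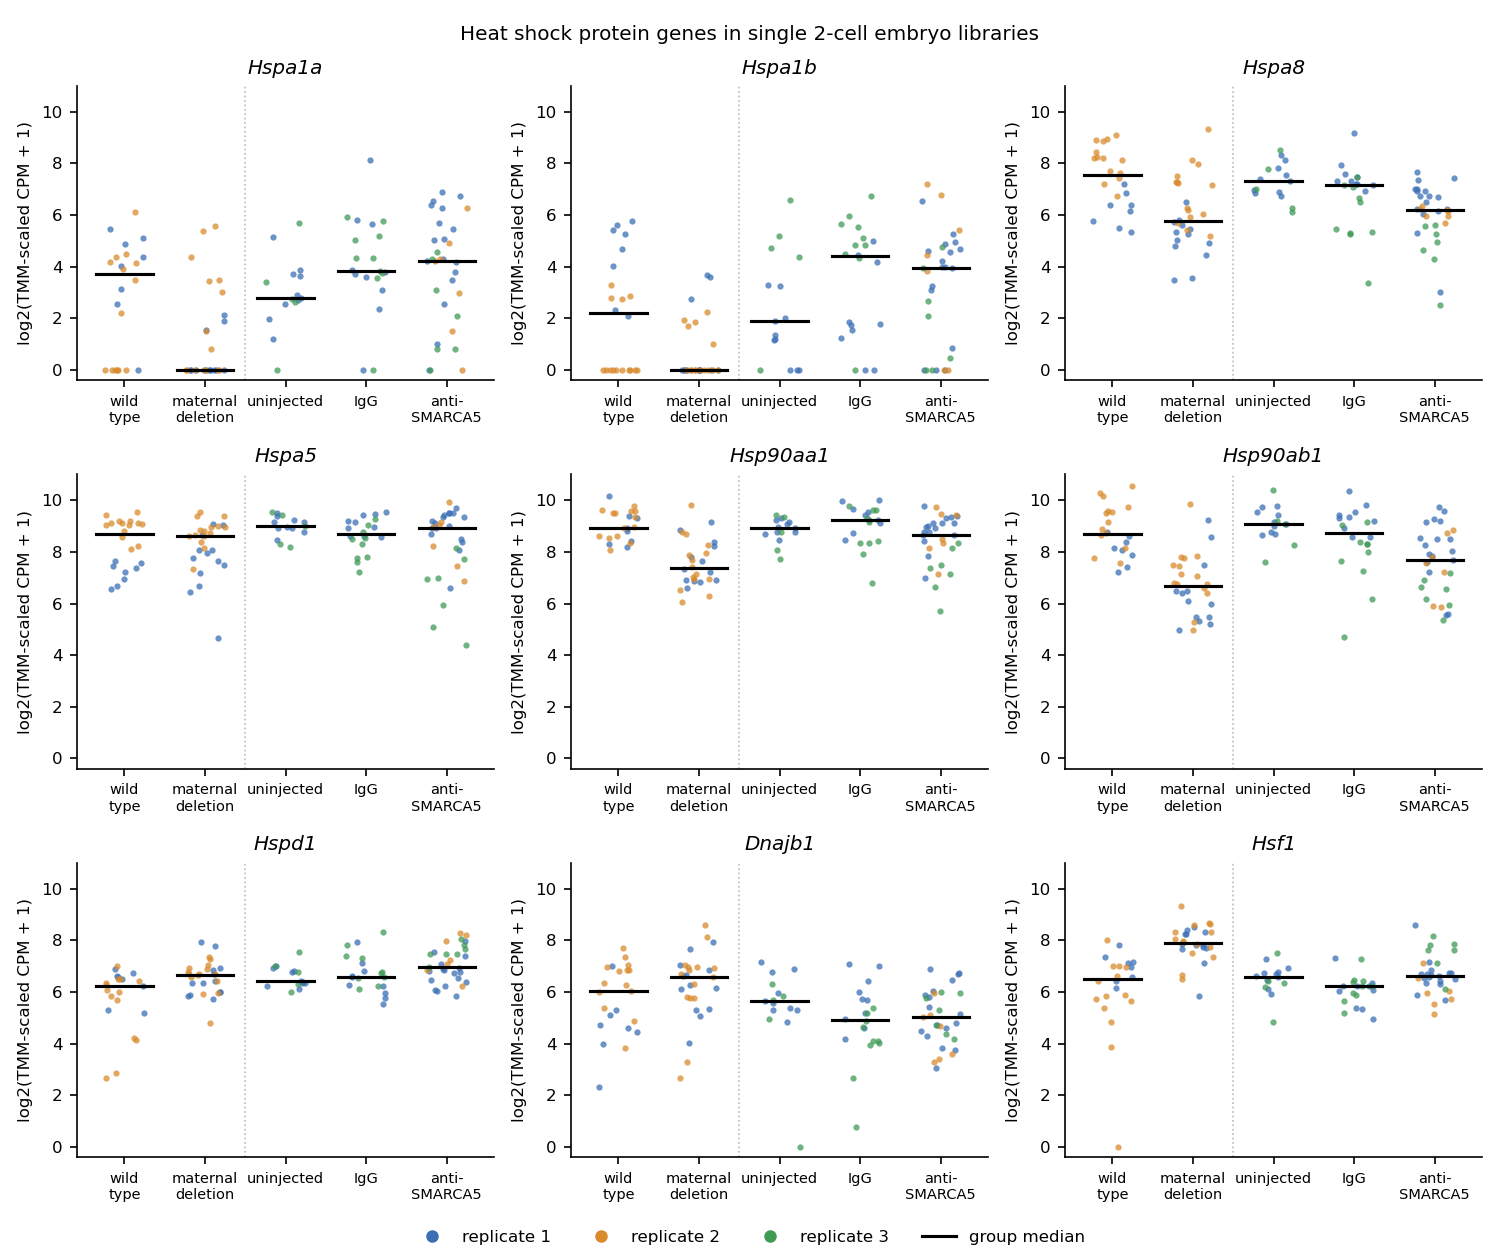
Level of each of the 9 genes, as log2(TMM-scaled CPM + 1), in the 116 libraries of the 5 groups. Each point is 1 library coloured by replicate number and black lines are group medians. Hsf1 has its highest median in the deletion group (238 CPM), where Hsp90aa1 (166 CPM) and Hsp90ab1 (102 CPM) have their lowest.

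Hspa1a and Hspa1b encode the stress-inducible HSP70. Per kilobase of transcript, their median levels were the lowest of the 9 in wild type and in the deletion group. In wild type, Hspa1a ranged from 0 to 69.0 CPM with a median of 12.2 CPM, and in the deletion group from 0 to 46.4 CPM with a median of 0. Without wells G05 and H05 the wild-type median of Hspa1a was 9.03 CPM and its highest library 43.7 CPM. Hspa1b ranged from 0 to 54.0 CPM (median 3.62 CPM) in wild type and from 0 to 11.7 CPM (median 0) in the deletion group. The groups overlapped fully, but 25 of 28 deletion libraries lay below the wild-type median of Hspa1a and 24 of 28 below that of Hspa1b. Neither gene had more than 3 counts in 18 of 28 deletion libraries, against 8 of 22 wild-type libraries. Wild-type libraries were shallower (median total 545265 against 1618486 counts), and 3 counts were worth up to 27.5 CPM in the shallowest of them and 11.3 CPM in the shallowest deletion library.

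Neither gene alone passed the filter on low counts, so the pair was tested as a sum in the same fit. The sum averaged 26.4 ± 28.3 CPM (SD, n = 22) in wild type and 6.63 ± 12.6 CPM (SD, n = 28) in the deletion group, with medians of 18.7 and 0. Of 28 deletion libraries, 25 lay below the wild-type median of the sum. Its log2 fold change was -1.91 (SE 0.74, adjusted p = 0.0251), in a fit where 56.6% of all genes passed, and -1.96 (adjusted p = 0.0349) when the replicate was blocked. It was -1.84 without the 3 libraries (adjusted p = 0.0376) and without the 4 (adjusted p = 0.0416). Tested singly without the filter, where 49.6% of 20995 genes passed, Hspa1b gave -3.03 (SE 0.89, adjusted p = 0.00356) and Hspa1a gave -1.46 (SE 0.80, adjusted p = 0.12). The difference between the replicates in the effect of the deletion on Hspa1a was 4.19 (SE 1.6, adjusted p = 0.174). No member passed that test of a difference between replicates, 2 had an unadjusted p under 0.05, and 1.08% of 11352 genes passed. In replicate 1, none of 13 deletion libraries had more than 3 counts of Hspa1a, against 5 of 8 wild-type libraries, and in replicate 2 the counts were 7 of 15 and 6 of 14. For Hspa1b the numbers were 3 of 13 and 6 of 8 in replicate 1, then 4 of 15 and 3 of 14 in replicate 2. For the sum they were 3 of 13 and 7 of 8, then 7 of 15 and 7 of 14. Whether the fall of the sum differed between the replicates was not tested.

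The share of each copy in the pair's reads varied between replicates. Hspa1b made up 59.7% of the pair's summed CPM in wild type replicate 1 and 77.9% in deletion replicate 1, where only 3 of 13 libraries had more than 3 counts of the pair (mean 0.619 CPM of Hspa1a and 2.18 CPM of Hspa1b). In replicate 2 its share was 13.3% in wild type and 8.36% in the deletion group. In the TrimAway experiment Hspa1b held 21.5% of the pair in uninjected replicate 1 and 15.1% in IgG replicate 1, against 70.9% and 60.3% in replicate 3. Anti-SMARCA5 libraries gave 32.1%, 68.8% and 47.7% in replicates 1, 2 and 3. Among libraries with more than 3 counts of the pair, Hspa1b had the larger count in 0 of 9 IgG libraries of replicate 1 and in 7 of 9 of replicate 3. These shares are a description with no test, and the part of the copies' shared sequence in them was not tested. In the deletion experiment the replicate and the sequencing lane cannot be told apart, while all TrimAway libraries shared a lane.

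**Figure D2:**
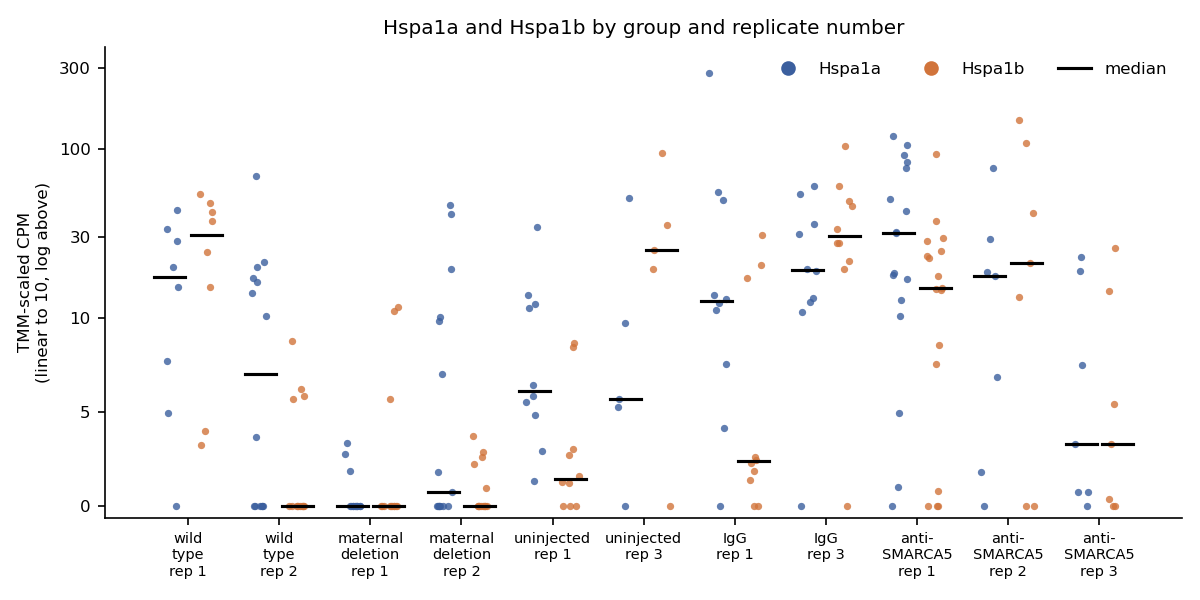
Hspa1a and Hspa1b in TMM-scaled CPM for each group and replicate number, with 1 point per library and black lines at the medians (the axis is linear up to 10 and logarithmic above). In wild type the median of Hspa1b is 31.1 CPM in replicate 1 and 0 in replicate 2, and in IgG it is 2.38 CPM in replicate 1 and 30.7 CPM in replicate 3.

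Hspa8 encodes the constitutive cytosolic HSP70. In wild type it ranged from 39.2 to 552 CPM with a median of 186 CPM, and in the deletion group from 10.1 to 648 CPM with a median of 54.1 CPM. Of 28 deletion libraries, 25 lay below the wild-type median, and the highest value of the deletion group was the library in well A04. The log2 fold change was -1.14 (SE 0.36, adjusted p = 0.00628), and -1.48 (adjusted p = 0.000258) without the 3 libraries that went against their labels and -1.49 without the 4. The replicates of wild type differed widely, with medians of 77.4 CPM in replicate 1 and 299 CPM in replicate 2, and Hspa8 was lower in the deletion group within each (-1.07, adjusted p = 0.0263, and -0.905, adjusted p = 0.0432), where 43.8% and 39.9% of all genes passed.

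Both HSP90 genes fell as well. Hsp90aa1, the inducible form, ranged from 266 to 1131 CPM (median 489 CPM) in wild type and from 65.2 to 898 CPM (median 166 CPM) in the deletion group. Of the 28 deletion libraries 26 lay below the wild-type median, and only 8 lay within the wild-type range. Its log2 fold change was -1.24 (SE 0.24, adjusted p = 3.24e-05). Hsp90ab1, the constitutive form, ranged from 149 to 1500.4 CPM (median 415 CPM) in wild type and from 30.6 to 925 CPM (median 102 CPM) in the deletion group, again with 26 of 28 libraries below the wild-type median. It gave -1.72 (SE 0.33, adjusted p = 2.43e-05). Well A04 held the highest value of the deletion group for both genes. Without the 3 libraries the highest deletion values were 566 CPM of Hsp90aa1 and 608 CPM of Hsp90ab1, and the fold changes were -1.48 and -2.07 (-1.46 and -2.03 without the 4).

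Hsf1, the transcription factor of the response, was the only member that rose. It ranged from 0 to 259 CPM (median 89.9 CPM) in wild type and from 55.7 to 634 CPM (median 238 CPM) in the deletion group. Of 28 deletion libraries, 26 lay above the wild-type median and 12 above its highest library, which was well G05. The log2 fold change was 1.42 (SE 0.30, adjusted p = 7.81e-05), 1.60 without the 3 libraries and 1.61 without the 4. It was 0.86 (adjusted p = 0.0244) within replicate 1 and 1.89 (adjusted p = 0.00127) within replicate 2. The difference between the replicates was 0.93 (SE 0.57, adjusted p = 0.438).

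The organelle chaperones and the HSP40 gene did not pass. Hspa5, also called BiP, ranged from 94.2 to 742 CPM (median 414 CPM) in wild type and from 24.6 to 745 CPM (median 388 CPM) in the deletion group. Its log2 fold change was -0.09 (SE 0.26, adjusted p = 0.791), and 0.18 with the replicate block. In wild type its medians were 156 CPM in replicate 1 and 544 CPM in replicate 2. Hspd1, the mitochondrial chaperonin HSP60, had medians of 74.98 CPM in wild type and 100.2 CPM in the deletion group and gave 0.59 (SE 0.27, adjusted p = 0.0521). Dnajb1, an HSP40 that hands clients to HSP70, had medians of 64.5 and 95.3 CPM in the same order and gave 0.52 (SE 0.35, adjusted p = 0.207). Within replicate 1, Dnajb1 gave 1.36 (adjusted p = 0.0286). Without the 3 libraries Hspa5 gave -0.06 (adjusted p = 0.852), Hspd1 0.57 (adjusted p = 0.0742) and Dnajb1 0.35 (adjusted p = 0.407), and none of these passed without the 4.

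Lists of genes with known times of expression moved in the same libraries. In the deletion comparison 26.4% of all genes fell and 30.3% rose. Of 20 tested genes of a list of 2-cell stage genes, 11 fell and 1 (Zfp750) rose with the deletion. Their summed level ran from 1324 to 6261 CPM (median 2515 CPM) in wild type and from 191 to 5807 CPM (median 621 CPM) in the deletion group. Of 26 tested maternal oocyte transcripts 22 rose and none fell, with summed levels of 466.5 to 16129 CPM (median 2854 CPM) and 1514 to 48901 CPM (median 19293 CPM). The part of these differences in the members' changes was not tested. Of 16 markers of cumulus and granulosa cells, the cells around the egg, only Amhr2 and Nr5a2 passed the filter and both fell. The summed median of these markers was 123 CPM in wild type and 57.8 CPM in the deletion group. Amhr2 went from a median of 63.7 CPM to 0 and Nr5a2 from 46.9 to 9.03 CPM, while other markers of the list had counts more often in deletion libraries. Star had more than 3 counts in 3 of 22 wild-type and 15 of 28 deletion libraries, Cyp19a1 in 0 and 11, Col4a1 in 2 and 12, and Vcan in 0 and 7, at greater depth in the deletion group. Inha was at 0 in every library of both. The part of such cells in the members' changes was not tested. None of 7 sperm markers passed the filter, and their summed median was 0 in wild type and 2.95 CPM in the deletion group.

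Genes of the wider pathway passed the test about as often as genes at large. Of 88 tested genes from 7 chaperone lists 24 rose and 24 fell, where 56.6% of all genes passed (30.3% higher and 26.4% lower), with a median log2 fold change of -0.23, against 0.18 for all genes tested. In the list of HSP90 and its co-chaperones, 9 of 17 fell and 1 rose, with a median of -1.0003. Those that fell included Fkbp4 (-3.38), Stip1 (-2.37), which links HSP70 to HSP90, and Ppid (-2.24). Fkbp5 (2.103) was the one that rose, and is named with its value seen. Median levels in wild type and deletion were 155 and 4.42 CPM for Fkbp4, 383 and 39.5 CPM for Stip1, and 58.1 and 9.79 CPM for Ppid.

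In the endoplasmic reticulum folding list, 8 of 20 rose and 1 (Dnajb9, -2.18) fell, with a median of 0.51, where 30.3% of all genes rose and 26.4% fell. Without the 3 libraries 3 of 19 fell, with Manf (-0.81) and Pdia3 (-0.76) added. The largest rises were Pdia6 (2.76), a disulfide isomerase, Dnajc3 (2.45), a co-chaperone of HSPA5, and Sel1l (2.44), a part of the degradation complex. Dnajc3 went from a median of 132 CPM in wild type to 585 CPM in the deletion group. Its lowest deletion library, at 234 CPM, lay below the highest wild-type library, at 291 CPM. Hspa5, the main HSP70 of the same compartment, did not pass.

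The counts for the remaining lists stand beside 30.3% of all genes higher and 26.4% lower in the same fit. The HSP70 family had 2 of 9 genes higher (Hspa12a, 1.62, and the lowly counted Hspa13) and 3 lower (Hspa4, -1.53, Hsph1, -1.41, and Hspa14, -0.96). Hspa4 and Hsph1 encode exchange factors that release HSP70's clients. Among HSP70 co-chaperones 2 of 8 rose (Bag4, 1.22, and St13, 0.64) and 3 fell (Bag5, -1.56, Bag1, -1.39, and Grpel1, -1.11, which did not pass with the replicate block, at an adjusted p of 0.119). In the HSP40 family 7 of 28 rose and 7 fell, led by Dnajc15 (-2.96), Dnajc3 and Dnajb14 (-2.34). Among small heat shock proteins, HSPE1 and Clp proteins 3 of 7 rose (Clpb, 1.61, Hspb11, 3.91, and Hspe1, 1.17) and 2 fell (Clpp, -2.47, and Clpx, -1.72). Of 4 factors and regulators besides Hsf1, Hsf5 (2.80) and Hsbp1 (0.79) rose. Hspa13, Hspa14, St13, Grpel1, Dnajb9, Manf, Pdia3, Hspb11 and Hspe1 are named here with their values seen.

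**Figure D3:**
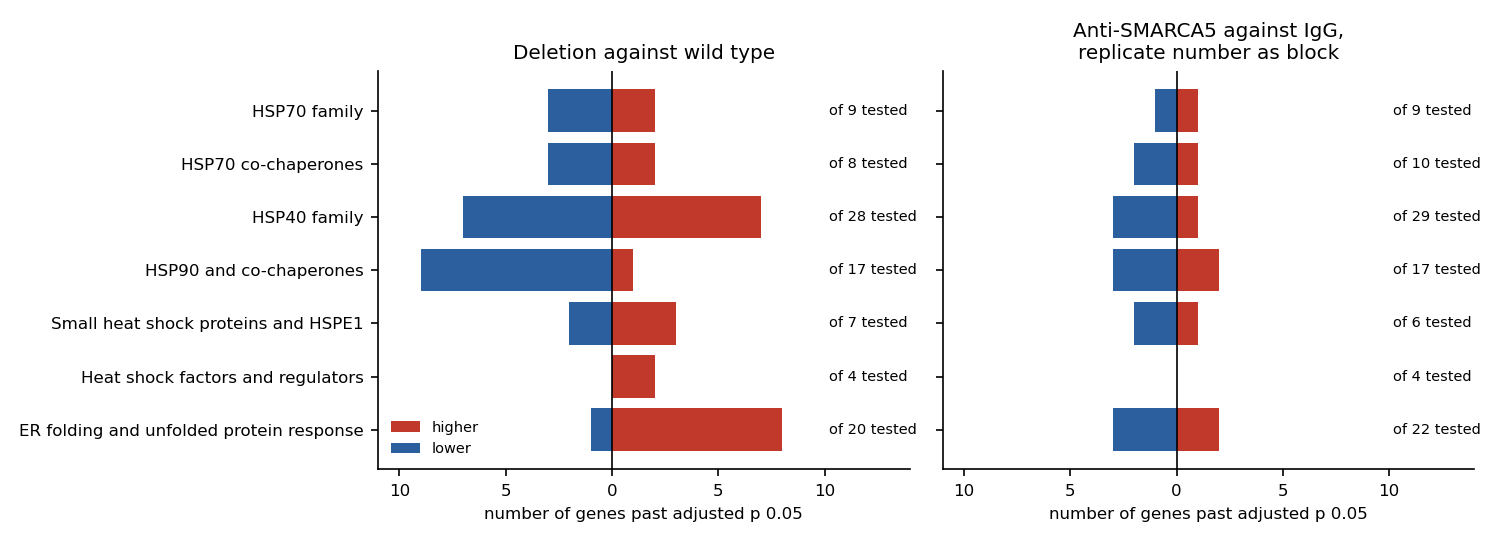
Number of genes in each of 7 chaperone lists that passed an adjusted p of 0.05, higher (red, to the right) or lower (blue, to the left), with the number tested beside each bar. Left, deletion against wild type, where 9 of 17 genes of the HSP90 list were lower and 8 of 20 of the endoplasmic reticulum list were higher; right, anti-SMARCA5 against IgG with replicates blocked.

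In TrimAway embryos Hsf1 was higher and Hspa8, Hsp90aa1 and Hsp90ab1 were lower than with IgG, the same signs as in the deletion, and whether they passed depended on the pools compared. With no term for the replicate, edgeR called 0 of 9 members, where 3.03% of 10447 genes passed. Of the 9, 4 had an unadjusted p under 0.05, and DESeq2 called Hsf1 alone, with 9.85% of all genes. When the replicate was blocked, which rests on replicates 1 and 3 since no IgG library of replicate 2 was kept, 4 of 9 members passed (Hsf1 higher, Hspa8, Hsp90aa1 and Hsp90ab1 lower), against 28.1% of 10100 genes (13.1% higher and 15.0% lower). Without replicate 2 Hsf1 passed (0.92, adjusted p = 0.017), where 591 of 10100 genes did. Without replicate 3 Hspa8 passed (-1.08, adjusted p = 0.0304), where 417 of 11044 genes did. Without replicate 1, 0 of 9402 genes passed.

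Hsf1 ranged from 34.7 to 380 CPM (median 97.6 CPM) in anti-SMARCA5 libraries and from 30.3 to 156 CPM (median 73.4 CPM) in IgG libraries. Of 31 anti-SMARCA5 libraries 23 lay above the IgG median. The log2 fold change was 0.75 (SE 0.23, adjusted p = 0.0514), and 0.97 (SE 0.22, adjusted p = 0.00238) with the block. Hspa8 ranged from 4.75 to 205 CPM (median 72.0 CPM) against 9.24 to 584 CPM (median 142 CPM) in IgG, with 28 of 31 libraries below the IgG median. It gave -0.82 (SE 0.29, adjusted p = 0.0832), and -1.12 (SE 0.28, adjusted p = 0.0049) with the block.

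Hsp90ab1 had a median of 207 CPM (40.7 to 849 CPM) in anti-SMARCA5 libraries and 429 CPM (24.8 to 1308 CPM) in IgG libraries, with 25 of 31 below the IgG median. It gave -0.78 (SE 0.32, adjusted p = 0.112), and -1.15 (SE 0.29, adjusted p = 0.00485) with the block. Hsp90aa1 had medians of 399 CPM (51.9 to 885 CPM) and 596 CPM (111 to 1034 CPM), with 24 of 31 below the IgG median. It gave -0.47 (SE 0.23, adjusted p = 0.186), and -0.85 (SE 0.23, adjusted p = 0.00825) with the block. All 4 genes thus overlapped between the groups, and most anti-SMARCA5 libraries lay on 1 side of the IgG median.

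**Figure D4:**
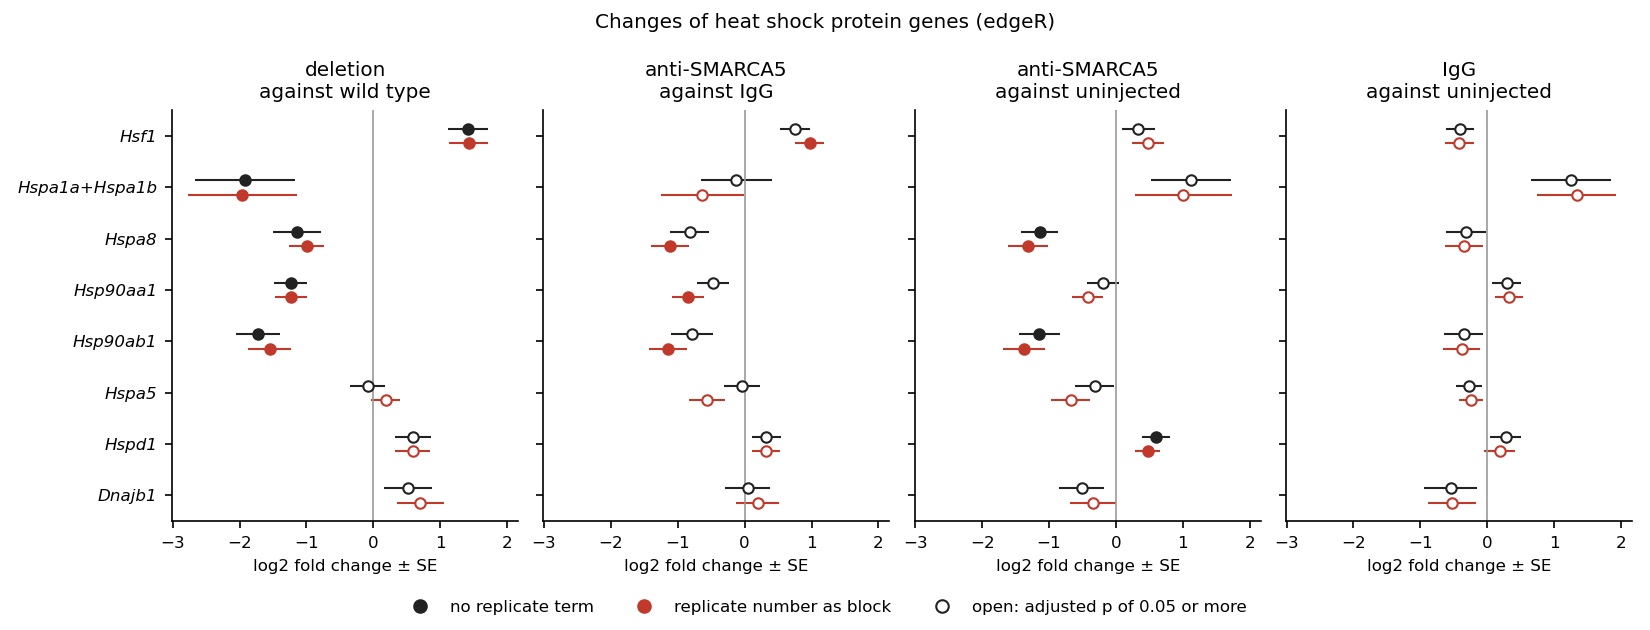
Log2 fold change with its standard error for Hsf1, the sum of Hspa1a and Hspa1b, and 6 other members in 4 comparisons, without a replicate term (black) and with the replicate number as a block (red). Filled points have an adjusted p under 0.05. In anti-SMARCA5 against IgG, Hsf1, Hspa8, Hsp90aa1 and Hsp90ab1 are filled only with the block.

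Several members were lower in replicate 3 than in replicate 1 in both the anti-SMARCA5 and the IgG group. The 7 anti-SMARCA5 libraries of replicate 3 averaged 30.04 ± 15.7 CPM of Hspa8, 122 ± 96.0 CPM of Hspa5, 176 ± 95.7 CPM of Hsp90aa1 and 89.7 ± 35.2 CPM of Hsp90ab1 (SD, n = 7). The 17 libraries of replicate 1 averaged 105 ± 49.2, 533 ± 193, 491 ± 176 and 363 ± 237 CPM of the same genes (SD, n = 17). Hsf1 was higher in replicate 3, at 190.4 ± 70.0 CPM (SD, n = 7), than in replicate 1, at 111 ± 72.5 CPM (SD, n = 17). IgG libraries of replicate 3 averaged 81.2 ± 55.8 CPM of Hspa8, 342 ± 154 CPM of Hspa5, 501 ± 266 CPM of Hsp90aa1 and 277 ± 179 CPM of Hsp90ab1 (SD, n = 10). Those of replicate 1 averaged 207 ± 137, 544 ± 136, 678 ± 223 and 674 ± 276 CPM of the same genes (SD, n = 10). Hsf1 was 75.7 ± 31.7 CPM in IgG replicate 3 and 69.8 ± 34.9 CPM in IgG replicate 1 (SD, n = 10 each). Within replicate 3, Hsf1 (1.36), Hspa5 (-1.49), Hsp90aa1 (-1.51) and Hsp90ab1 (-1.63) passed against IgG, where 16.5% of all genes did. No member passed within replicate 1, where 0.857% did.

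The difference between these replicates in the effect of anti-SMARCA5 was not called for any of the 9 members by edgeR, where 0.316% of 12659 genes passed. It was -1.50 (SE 0.48, adjusted p = 0.138) for Hspa5 and -3.86 (SE 1.3, adjusted p = 0.145) for Hspa1b, and 4 members had an unadjusted p under 0.05. In the same pool the 2-cell list summed to a median of 615 CPM, against 3465 CPM in anti-SMARCA5 replicate 1 and 2400 CPM in IgG replicate 3. The maternal list summed to 11251 CPM, against 3454 and 4607 CPM in those. Against IgG with the replicate block, 7 of 26 genes of the 2-cell list fell and 1 rose, and 10 of 23 maternal transcripts rose and none fell. In that fit 15.0% of all genes fell and 13.1% rose. The part of these list levels in the members' changes was not tested.

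Against uninjected embryos, which share the anti-SMARCA5 libraries with the comparison above, 3 of 9 members passed, where 27.9% of 10750 genes did (17.5% higher and 10.4% lower). Hspa8 ranged from 68.2 to 363 CPM (median 158 CPM) in uninjected libraries, and 28 of 31 anti-SMARCA5 libraries lay below that median (-1.14, SE 0.28, adjusted p = 0.00349). Hsp90ab1 ranged from 192 to 1337 CPM (median 539.8 CPM), with 26 of 31 below (-1.14, SE 0.31, adjusted p = 0.00709). Hspd1 ranged from 62.2 to 186 CPM (median 84.9 CPM) in uninjected libraries and from 56.0 to 312 CPM (median 125 CPM) in anti-SMARCA5 libraries, and 25 of 31 lay above the uninjected median (0.60, SE 0.21, adjusted p = 0.0303). The rise of Hspd1 was 0.08 (adjusted p = 0.776) when counts were scaled by library totals alone. Without replicate 1, no member passed, where only 1 of 10544 genes did. The changes in that fit were -1.82 for Hspa8, -1.94 for Hsp90ab1 and 0.76 for Hspd1. Without replicate 3, where 2002 of 11142 genes passed, Hsp90ab1 (-0.88, adjusted p = 0.0544) and Hspd1 (0.57, adjusted p = 0.105) did not pass, and Hspa8 did (-0.91, adjusted p = 0.017).

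Neither Hspa1a nor Hspa1b was called lower with anti-SMARCA5. Hspa1a had medians of 17.9 CPM (0 to 119 CPM) in anti-SMARCA5 libraries, 13.4 CPM (0 to 282 CPM) in IgG libraries and 5.86 CPM (0 to 51.1 CPM) in uninjected libraries. Hspa1b had medians of 14.6 CPM (0 to 149 CPM), 20.1 CPM (0 to 105 CPM) and 2.74 CPM (0 to 94.7 CPM) in the same order. The 3 groups overlapped, and both injected groups had the higher medians. Against IgG the sum of the pair gave -0.12 (SE 0.52, adjusted p = 0.893). Against uninjected embryos Hspa1a gave 1.41 (SE 0.59, adjusted p = 0.0663) and the sum 1.12 (SE 0.60, adjusted p = 0.147). Without replicate 3, Hspa1a gave 1.895 (adjusted p = 0.0353) and Hspa1b 3.32 (adjusted p = 0.00884), where 2002 of 11142 genes passed.

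Within replicate 1, where 15.6% of all genes passed against uninjected embryos, Hspa1a (2.14, adjusted p = 0.0183) and Hspa1b (2.88, adjusted p = 0.015) both did. In replicate 3 Hspa1b gave -2.36 (SE 1.1, adjusted p = 0.127). IgG against uninjected embryos shares those controls, and Hspa1a gave 1.64 (SE 0.58, adjusted p = 0.198), with 17 of 20 IgG libraries above the uninjected median. In that comparison edgeR called 0 of 9 members, with 0.0% of 9915 genes called. Hspa1a was the 1 member with an unadjusted p under 0.05, 1440 of all genes had one, and DESeq2 called no member but 207 genes (2.09%).

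The effects of the deletion and of anti-SMARCA5 against IgG were compared directly in 1 fit, where 19.2% of 12035 genes differed. Of the 9 members only Hspa1b differed (-3.08, SE 1.0, adjusted p = 0.0267), lower with the deletion, and with the replicate block it did not pass (-2.29, SE 1.2, adjusted p = 0.198), where 11.7% of genes did. Hspa1a and Hspa1b had failed the low-count filter in the deletion comparison, and were tested here because TrimAway libraries were added. Hspa1b had medians of 20.1 CPM in IgG and 14.6 CPM in anti-SMARCA5 libraries, against 3.62 CPM in wild type and 0 in the deletion group. The sum of the pair was not compared in this way. The difference between the effects was -1.26 (SE 0.93, adjusted p = 0.351) for Hspa1a. The others were -1.03 (SE 0.46, adjusted p = 0.102) for Hsp90ab1, -0.86 (SE 0.34, adjusted p = 0.0591) for Hsp90aa1, -0.37 (SE 0.47, adjusted p = 0.617) for Hspa8 and 0.61 (SE 0.36, adjusted p = 0.229) for Hsf1.

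In the TrimAway experiment the 7 chaperone lists gave 0 calls among 95 tested genes against IgG with edgeR, where 19 had an unadjusted p under 0.05 and DESeq2 called 4. With the replicate block 8 of 92 rose and 13 fell, where 28.1% of all genes passed. Among those that fell were Stip1 (-1.27), Bag1 (-1.01), Fkbp4 (-1.15), Ppid (-1.08), Dnajb14 (-1.42), Dnajc15 (-1.31), Clpp (-1.31) and Clpx (-0.86), and Bag4 (0.84) rose. Pdia6 (0.52, adjusted p = 0.153), Dnajc3 (0.27, adjusted p = 0.305) and Sel1l (0.38, adjusted p = 0.104), which led the endoplasmic reticulum list in the deletion, did not pass. Against uninjected embryos 9 of 99 rose and 18 fell, where 27.9% of all genes passed, and IgG against uninjected embryos gave 0 of 93, with 14 at an unadjusted p under 0.05 and 1 called by DESeq2.

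The order of the 5 groups by median level differed by gene. The deletion group was lowest for Hspa1a, Hspa1b, Hspa8, Hspa5, Hsp90aa1 and Hsp90ab1, and highest for Hsf1 and Dnajb1. Anti-SMARCA5 libraries came next to the deletion group for Hsf1, Hspa8, Hsp90aa1 and Hsp90ab1, at 97.6, 72.0, 399 and 207 CPM, and for Hspd1, where they were the higher at 125 CPM. Their Hsf1 median was close to the 95.4 CPM of uninjected embryos, and the test between those groups did not pass (0.33, SE 0.25, adjusted p = 0.298). Hspd1 was highest in anti-SMARCA5 libraries and lowest in wild type. Differences between the groups of separate experiments were not tested.

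Levels of different genes were compared per kilobase of the longest coding transcript. In wild type Hsp90ab1 had the highest median at 165 CPM per kb, followed by Hsp90aa1 at 149, Hspa5 at 113, Hspa8 at 77.7 and Hsf1 at 42.7 CPM per kb. Hspd1 and Dnajb1 were at 30.9 and 21.5 CPM per kb, and Hspa1a and Hspa1b at 4.11 and 1.29 CPM per kb. In the deletion group Hsf1 came first at 113 CPM per kb, above Hspa5 at 106, Hsp90aa1 at 50.5 and Hsp90ab1 at 40.4 CPM per kb. Both Hspa1 genes had medians of 0 there.

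Within groups, some members varied together. The deviation of each library from the mean of its group and replicate was taken on the log2(CPM + 1) scale over all 116 libraries, whose values share each library's depth and scaling. Hspa1a and Hspa1b had a Pearson r of 0.63, Hsp90aa1 and Hsp90ab1 0.55, and Hspa8 and Hsp90ab1 0.53. Hsf1 varied against Hsp90aa1 (r = -0.47) and hardly with Hspa1a (0.02) or Hspa1b (-0.06).

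Of 3945 genes with a mean of at least 50 CPM, those most like Hsf1 were E2f4 (r = 0.81), E2f1 (0.80) and Rbpms2 (0.79). The nearest to Hspa1a were Gm13078 (0.65), Tdpoz1 (0.60) and Gm5662 (0.57), and to Hspa1b AC165327.2 (0.60), AC153539.1 (0.53) and B020004J07Rik (0.53). Tdpoz1, Gm5662 and B020004J07Rik were on the list of 2-cell stage genes above. In the deletion comparison these 3 gave -2.48 (adjusted p = 0.00299), -1.81 (adjusted p = 0.0357, or 0.194 with the replicate block) and -1.91 (adjusted p = 0.00477). These correlations are descriptions across libraries with no test.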

How the data were processed

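The authors deposited 2 tables of raw read counts per gene, whole numbers with no normalization, for 135 embryo libraries and 3 wells without an embryo. Per the submitters' processing notes, Trim Galore 0.6.5, cutadapt 2.3 and HISAT2 2.1.0 were used with GRCm38. Polyadenylated RNA was prepared by the RNA part of scNMT-seq with Nextera XT, per the labels' protocols. The treatment of strand, read pairs and multiply aligned reads is not given in the sources used here. Odd counts outnumbered even ones among low values (134662 table cells held 1, 30228 held 2, 84269 held 3). The cause was not tested, and the floor of 3 counts covers counting error only.

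Lines of 1 gene were summed, which left 25900 genes. Libraries under 100000 counts were left out (19, including all 6 IgG libraries of replicate 2), and 116 were kept. Fits used edgeR 4.0.16 in R 4.3.3 (TMM scaling, filterByExpr, robust quasi-likelihood F test), each with only the groups it compares. Benjamini-Hochberg adjustment ran over all genes tested, and an adjusted p-value under 0.05 was a call. The standard error is the log2 fold change divided by the square root of F. DESeq2 1.42.0, other scalings, depth minimums and filters, left-out replicates and the replicate block were alternatives. On simulated counts for the deletion comparison (7876 genes), 13.2% of 2-fold and 78% of 4-fold changes were called. For anti-SMARCA5 against IgG (10001 genes) the rates were 28.4% and 90.5%. Only 91 genes per fold were changed in the first and 95 in the second, while 56.6% of genes passed in the real deletion comparison. The cut-off on p depends on that share, so these rates do not carry over to the real deletion comparison.

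The labels do not say that embryos came from separate animals, and each library was counted as a replicate. The p-values thus measure the spread between embryos as sampled. Without the block that spread includes differences between pools, which the block takes out. With so few pools in each group, p-values do not measure how an effect varies between pools. Replicate numbers name shared pools or lanes in the design text and headers, and same-numbered groups deviated together across genes, with correlations of 0.522 (deletion and wild type), 0.623 (anti-SMARCA5 and IgG), 0.432 (IgG and uninjected) and 0.0923 (anti-SMARCA5 and uninjected).

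The members and gene lists were chosen with earlier results of these data known. Genes named in the text are the members, Smarca5, the 3 called genes of each chaperone list with the largest change in the deletion comparison, where the average log2 CPM reached 4, and the 3 most like Hspa1a, Hspa1b and Hsf1. Others, Zfp750, Amhr2, Nr5a2 and Trim21 among them, were chosen after their values were seen. Motifs were searched in RefSeq's promoter table (GRCm38.p6), and transcripts were from GENCODE vM21.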

Additional observations from a re-analysis of the deposited data

Results flagged for a closer look

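Among 63 sets of 4 to 10 libraries, 1 gene in 1 group and replicate each, 10 had a highest library far from the rest by Dixon's test. Its chance rate of about 1 in 20 holds for normally distributed values. The test was run on CPM with no log taken, so that rate need not hold here, and the number of such sets is a description. For Hspa1a the libraries far from the rest were anti-SMARCA5 replicate 2 well G02 (76.7 CPM), IgG replicate 1 well H09 (282 CPM), uninjected replicate 1 well C09 (34.8 CPM) and uninjected replicate 3 well H04 (51.1 CPM). IgG well H09 was also high for Hspd1 (246 CPM). The others were Hspa8 in IgG replicate 1 well F10 (584 CPM), Hsp90aa1 in wild type replicate 1 well A07 (1131 CPM), Dnajb1 in wild type replicate 1 well C07 (127 CPM), and Hsf1 in IgG replicate 1 well D10 (156 CPM) and IgG replicate 3 well F03 (153 CPM). All were the highest of their set.

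Hspa1b differed between the effect of the deletion and that of anti-SMARCA5 against IgG, by -3.08 on the log2 scale (edgeR adjusted p = 0.0267), and did not with the replicate block (adjusted p = 0.198). It had failed the low-count filter in the deletion comparison alone, and was tested here because TrimAway libraries were added.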

How the results depend on the processing

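In the deletion comparison Hsf1, Hspa8, Hsp90aa1 and Hsp90ab1 kept their direction and their call in all 14 alternatives run for them. These were not all distinct, since each fit within a replicate used the same libraries as the fit without the other replicate. The block with the pair summed also differed from the block only in the Hspa1 genes. In the fit reported 56.6% of all genes passed, and 43.8% and 39.9% did within replicates 1 and 2. The count of members called in anti-SMARCA5 against IgG was 0 in the fit reported, where 3.03% of all genes passed. It moved to 4 with the replicate block (28.1% of all genes, also 4 with Hspa1a and Hspa1b summed) and to 1 with DESeq2 (9.85%). It was 2 with no filter on low counts (3010 of 22374 genes) and 1 with all libraries that held a count (623 of 9500 genes). When a replicate was left out it was 0 to 1. In those fits 0 of 9402 genes passed without replicate 1, 591 of 10100 without replicate 2 and 417 of 11044 without replicate 3. Within replicate 3 the count of members called was 4 (16.5% of all genes). Against uninjected embryos it went from 3 to a lowest of 0 and a highest of 3 when a replicate was left out. The lowest was without replicate 1, where 1 of 10544 genes passed. In the other fits 2921 of 10283 genes passed without replicate 2 and 2002 of 11142 without replicate 3. For the difference between the deletion and anti-SMARCA5 effects the count of members called went from 1 to 0 with the block, where 19.2% and 11.7% of all genes passed. The cause was not tested. The fits within a replicate, the block with the summed pair and the fits without 4 libraries (or without 3 with the pair summed) were chosen after seeing the data. The pairing by replicate number changed the calls named here and in the report, and no other call of a member.

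Scaling by library totals moved the median log2 fold change of all genes from 0.18 to -0.04 in the deletion comparison, from 0.04 to -0.10 against IgG and from 0.13 to -0.29 against uninjected embryos. With it, calls against IgG were 17 higher and 47 lower (reported fit 181 and 136) and against uninjected embryos 409 and 1874 (1885 and 1114).

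Changes that turned direction were all of members not called in the fit reported. Some were called under an alternative: Hspa1b against uninjected without replicate 3 (3.32) and within replicate 1 (2.88), Hspa5 within replicate 3 against IgG (-1.49) and against uninjected (-2.12). Hsp90aa1 against uninjected was also called in 1 alternative, and its changes ran down to -1.41 over the alternatives. Hspa5 in the deletion became 0.18 with the block (0.18 with the pair summed) and 0.71 within replicate 1, and ran from -0.065 to 0.71 over left-out replicates. Against IgG, Hspa1b became -0.058 with the block, -0.063 by library totals, -0.045 without the filter, -0.047 at a minimum of 500000 counts, -2.45 within replicate 3, and ran from -0.51 to 1.86 over left-out replicates. Hspa5 became 0.025 within replicate 1. Dnajb1 became -0.0020 with DESeq2, -0.0021 with its size factors, -0.0012 at the higher minimum, -0.33 within replicate 1 and ran from -0.53 to 0.76 over left-out replicates. Against uninjected embryos, Hspa1b ran from -0.36 to 3.32 and Hsp90aa1 from -0.46 to 0.0052 over left-out replicates, Hspa1b became -2.36 within replicate 3, Hspa5 0.038 and Hsp90aa1 0.040 within replicate 1, and Hsf1 -0.12 by library totals. In IgG against uninjected, within replicate 1 (the same libraries as without replicate 3) gave 0.20 for Hspa8, 0.027 for Hspa5 and 0.16 for Hsp90ab1, against -1.10, -0.62 and -1.13 without replicate 1, and library totals gave -0.020 for Hsp90aa1 and -0.12 for Hspd1. The deletion by replicate interaction became -0.24 for Hspa8 at the higher minimum and -0.015 for Hsp90aa1 by library totals. The difference between the deletion and anti-SMARCA5 effects became 0.052 for Hspa8 and 0.68 for Hspa5 with the block, and 0.0072 for Hspa5 at the higher minimum. Depth limited Hspa1a and Hspa1b most, since 3 counts were worth 0.25 to 27.5 CPM in wild type.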
